A study of Mus musculus with 629 samples.

Results

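The comparison described here is between 2 kinds of brain myeloid cell taken from Notch3 knockout (KO) mice: cells labelled macrophages and cells labelled microglia. The members were chosen by their labels alone, as every KO cell of either type, and number 197 of the 629 cells of the series: 119 macrophages and 78 microglia. They lay on 2 of the 6 plates. Plate 060s held 98 of the macrophages and 47 of the microglia, and plate 524s held 21 and 31. The 6 KO cells of a type labelled only 7 were not used. All groups came from adult C57BL/6 mice that carried the reporter SM22-Cre;Rosa26-stop-tdTomato, in which the promoter of SM22 (Tagln), a smooth muscle gene, drives the Cre that switches on a red fluorescent protein. Which sorting gate gave the myeloid cells is not labelled. The KO mice lacked Notch3 in addition, and the wild-type (WT) and heterozygous (Het) mice used as controls differed from them in Notch3 alone, as far as the labels say. Single cells had been sorted into the wells of 384-well plates and sequenced with SMART-seq2, a method that copies full-length polyadenylated RNA and marks no molecule, so that reads can be PCR copies of each other. WT cells numbered 211 macrophages and 79 microglia, and Het cells 70 and 58.

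Microglia are the macrophages of the brain tissue itself. They arise from the yolk sac, depend on the receptor Csf1r and on TGF-beta for their identity, and are recognised by genes such as P2ry12, Tmem119 and Sall1. Perivascular macrophages lie between the vessel wall and the glial border, take up material from blood and interstitial fluid, and carry scavenger and lectin receptors such as Mrc1, Cd163, Lyve1 and Stab1. Notch3 is best known as a receptor of vascular smooth muscle cells and pericytes, the mural cells that perivascular macrophages lie against, and the comparison asks which differences between the brain's resident myeloid cell types are present where Notch3 is missing.

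The animal behind a cell is not labelled, so each KO cell type was treated as 1 sample, values are given per plate, and no test was run. Levels are in CPM, the usual scaling of counts to an equal library total, from counts summed over the cells of a type on a plate, without ERCC spike-ins and without Rn18s, the 18S ribosomal RNA, and 95% intervals on them are exact Poisson intervals that cover counting error only. The total per pool ran from 4606759 to 13124510 counts. Macrophages were the shallower cells on both plates, with medians of 116105 and 171764 counts per cell on plates 060s and 524s against 191482 and 320039 in microglia, and with 3238 and 3257 genes per cell against 4198 and 5053. They also gave fewer gene counts per ERCC count, with medians of 54.6 and 45.7 against 85.7 and 81.3. Xist and Ddx3y showed the KO cells of plate 060s to be male and those of plate 524s to be female, so the plates held different animals, at least 1 on each, and how many is not labelled. Notch3 had 2 counts in 1 of the 98 macrophages of plate 060s, 1 count in 1 of the 31 microglia of plate 524s and 0 counts in the other 2 pools, which allows a share of cells with a count of up to 6.38% and 14.3% there. In WT it had counts in 1 of 47 macrophages and 1 of 44 microglia of plate 059s and 0 counts on the other plates, so its level in these cell types does not check the genotype. Tagln had 12 counts in 1 microglial cell and 0 counts in the other KO cells.

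Homeostatic microglia markers separated the cell types widely. All 16 were higher in microglia on both plates, 10 of them at least 4-fold and 13 at least 2-fold. The cell-type labels may rest on these same counts, so the values serve as a check of the labels and are no finding of their own. Tmem119, a membrane protein gene used to tell microglia from other macrophages, stood at 5868 CPM (95% interval 5817 to 5919) in microglia and 78.3 CPM (73.6 to 83.3) in macrophages of plate 060s, and at 6764 and 439 CPM on plate 524s. P2ry12, the ADP receptor that steers microglial processes, stood at 6133 against 443 CPM on plate 060s and at 5119 against 335 CPM on plate 524s. Sall1, the transcription factor that holds microglial identity, stood at 324 against 1.75 CPM and at 470.4 against 25.8 CPM. With all cells counted, the ratio of Sall1 differed between plates far more than that of P2ry12. A single macrophage of plate 524s, described below, held 95.8% of the Sall1 counts of the macrophages there. Without it the log2 ratios of macrophages over microglia there were -7.77 for Sall1 and -4.67 for P2ry12, in place of -4.14 and -3.93. Olfml3 was 95.6-fold and 26.2-fold higher in microglia, and Sparc, a secreted matrix protein, 49.4-fold and 27.0-fold. Siglech, Selplg, Slc2a5 and Gpr34 were also at least 4-fold apart. Fcrls and Csf1r were the least different members, with log2 ratios of macrophages over microglia of -0.45 and -0.08 for Fcrls and -0.34 and -0.28 for Csf1r, the receptor on which both cell types depend. The median log2 ratio of the list was -3.96 on plate 060s and -3.33 on plate 524s, beside -4.53 to -3.44 in 6 control pools (the WT and Het cells of a plate that held at least 10 cells of both types). All log2 ratios were formed on CPM + 1.

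Perivascular macrophage markers pointed the other way and differed far less. Of 16 members 15 were measured, a term for genes at 20 CPM or more, with 25% of cells or more showing a count, in some cell type on each plate. All 15 were higher in macrophages on both plates, 8 of them at least 2-fold and 0 at least 4-fold. Mrc1, the mannose receptor, stood at 9181 CPM (9129 to 9233) in macrophages and 3783 CPM (3742 to 3824) in microglia of plate 060s, and at 6156 and 3075 CPM on plate 524s. Every KO cell of both types had an Mrc1 count. Cbr2, a carbonyl reductase gene, stood at 1322 against 506 CPM and at 1977 against 681 CPM. Folr2, a folate receptor, stood at 150.4 against 46.7 CPM and at 225 against 53.3 CPM, and F13a1, the coagulation factor XIII subunit, at 4137 against 1356 CPM and 3219 against 1465 CPM. Colec12, Cd209f, Ms4a7 and Pf4 were the other members at least 2-fold apart on both plates. Maf, a transcription factor of tissue macrophages, was the closest to equal on plate 060s with a log2 ratio of 0.26, and Clec10a, a galactose-binding lectin, on plate 524s with 0.49. The list's median log2 ratio was 1.41 on plate 060s and 1.00 on plate 524s, inside the 0.87 to 1.75 of the control pools.

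**Figure D1:**
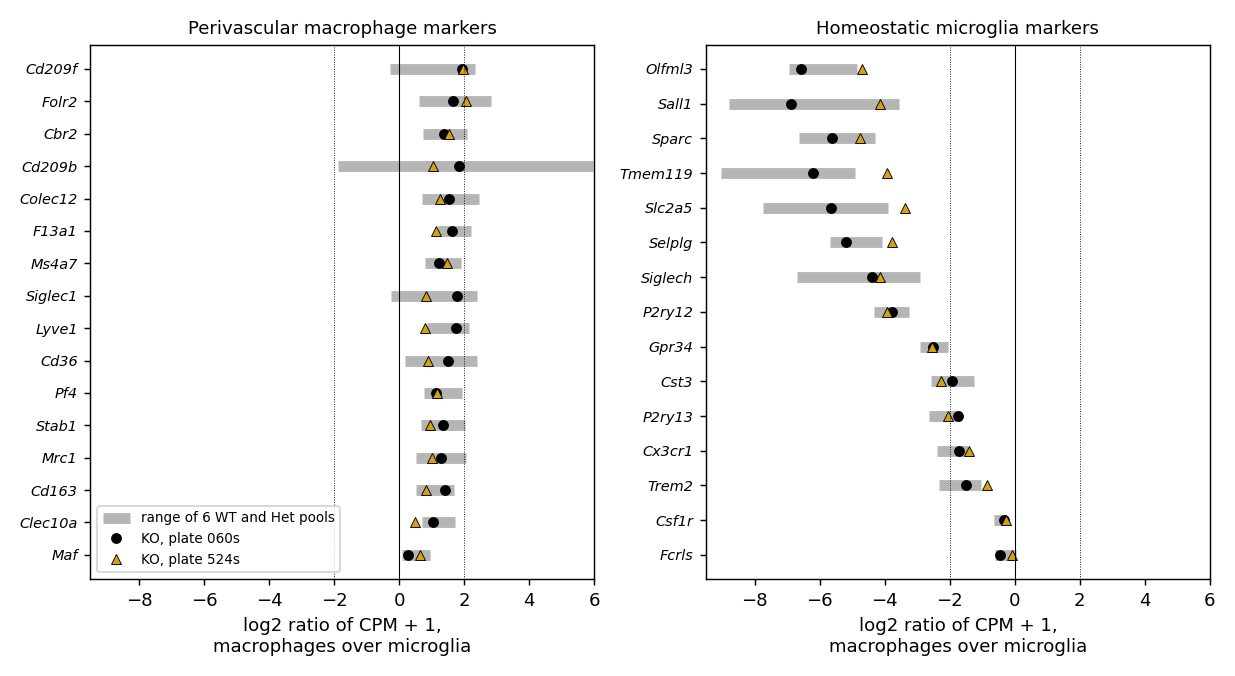
Log2 ratio of CPM + 1 in macrophages over microglia for 16 perivascular macrophage markers (left) and 15 of the homeostatic microglia markers (right). Circles are KO cells of plate 060s, triangles KO cells of plate 524s, and grey bars the range over 6 WT and Het pools; dotted lines mark 4-fold. All macrophage markers lie to the right of 0 and inside or close to 4-fold, and 9 of the microglia markers shown lie beyond 4-fold on both plates.

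Every KO microglial cell had counts for at least 6 of the 16 macrophage markers. The summed level of the 16 macrophage markers in a cell had a median of 33083 CPM in macrophages and 12348 CPM in microglia of plate 060s, with ranges of 15806 to 53248 and 339 to 32763 CPM. On plate 524s the medians were 31474 and 13866 CPM, with ranges of 14455 to 49253 and 767 to 31742 CPM. The ranges overlapped: 14 of 47 microglia of plate 060s and 15 of 31 of plate 524s lay above the lowest macrophage. A median of 14 of the 16 members had a count in each of the 4 pools. In the other direction the 16 microglia markers summed to medians of 26649 CPM in macrophages and 77027 CPM in microglia of plate 060s and to 28366 and 82505 CPM on plate 524s, where Csf1r and Fcrls supplied much of the macrophage sum. On plate 060s 16 of 98 macrophages lay above the lowest microglial cell, and on plate 524s 1 of 21 did. The part of this macrophage marker RNA in the ratios given here was not tested.

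**Figure D2:**
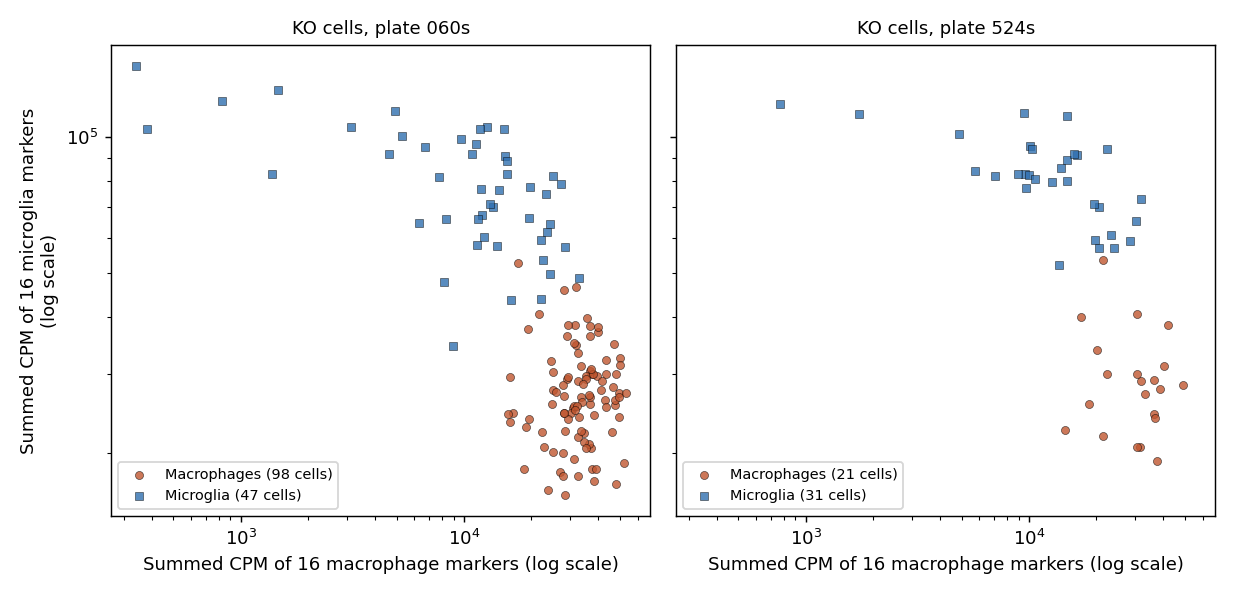
Each point is 1 KO cell, with the summed CPM of 16 macrophage markers on the horizontal axis and of 16 microglia markers on the vertical axis, both log scales; circles are macrophages and squares microglia, and the panels are plates 060s and 524s. The cell types overlap on both axes: on plate 060s 16 of 98 macrophages lie above the lowest microglial cell on the vertical axis, and 14 of 47 microglia lie above the lowest macrophage on the horizontal axis.

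A single macrophage of plate 524s held a large part of the counts of several microglial genes among the macrophages of that plate. Of the 128 genes called higher in microglia below, it was the cell with the most counts among the plate's macrophages for 37, with 302530 gene counts in all, the sixth largest of 21. Its microglia markers summed to 53634 CPM, the highest of the plate's macrophages, and its macrophage markers to 21433 CPM. It supplied 95.8% of the Sall1 counts, 87.7% of the Eng counts, 75.0% of the Selplg counts and 55.7% of the Tmem119 counts of these macrophages, while it held 6.57% of all their gene counts. For other microglia markers the cell supplied far less, with 4.83% for Trem2, 5.61% for Cx3cr1, 6.76% for Csf1r and 9.01% for Fcrls. Without it the log2 ratio on plate 524s was -7.77 for Sall1, -5.65 for Selplg, -5.02 for Tmem119 and -5.52 for Olfml3, in place of -4.14, -3.76, -3.94 and -4.71. The median of the microglia list then stood at -3.88 and that of the macrophage list at 1.02. The counts of genes given next stood at 2 and 129 without this cell.

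Across all genes the difference between the KO cell types was lopsided. A gene was called when its ratio was at least 4-fold in the same direction on both plates and it passed the floor of 20 CPM and the detection limit of 25% of cells in the higher type. Of 5295 measured genes, 128 (2.42%) were higher in microglia and 2 (0.0378%) in macrophages. At a limit of 2-fold, 347 (6.55%) were higher in microglia and 114 (2.15%) in macrophages. At 8-fold, 16-fold and 32-fold, 73, 43 and 16 genes were higher in microglia and 0 in macrophages. Plate 060s alone gave 233 genes for microglia (3.99% of 5839) and 34 for macrophages (0.582%), and plate 524s alone gave 660 (10.7% of 6171) and 140 (2.27%). Of the 233 microglial genes of plate 060s, 215 had the same direction on plate 524s, and of its 34 macrophage genes 20 did. Their median log2 ratios of macrophages over microglia on plate 524s were -2.56 and 0.59, beside -0.13 for the genes measured on both plates. The share of all genes with either direction there is not given. In opposite directions on the plates were 5 genes (0.0944%) at 4-fold. With the mean of the cells' own CPM in place of summed counts, 0 genes were 4-fold higher in macrophages and 129 in microglia, 106 of which were among the 128. Over all measured genes the log2 ratio had a median of -0.05 on plate 060s and -0.13 on plate 524s. Across these genes the log2 ratios of the plates had a Spearman correlation of 0.365 and a Pearson correlation of 0.482, given as a description because genes are not independent replicates.

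**Figure D3:**
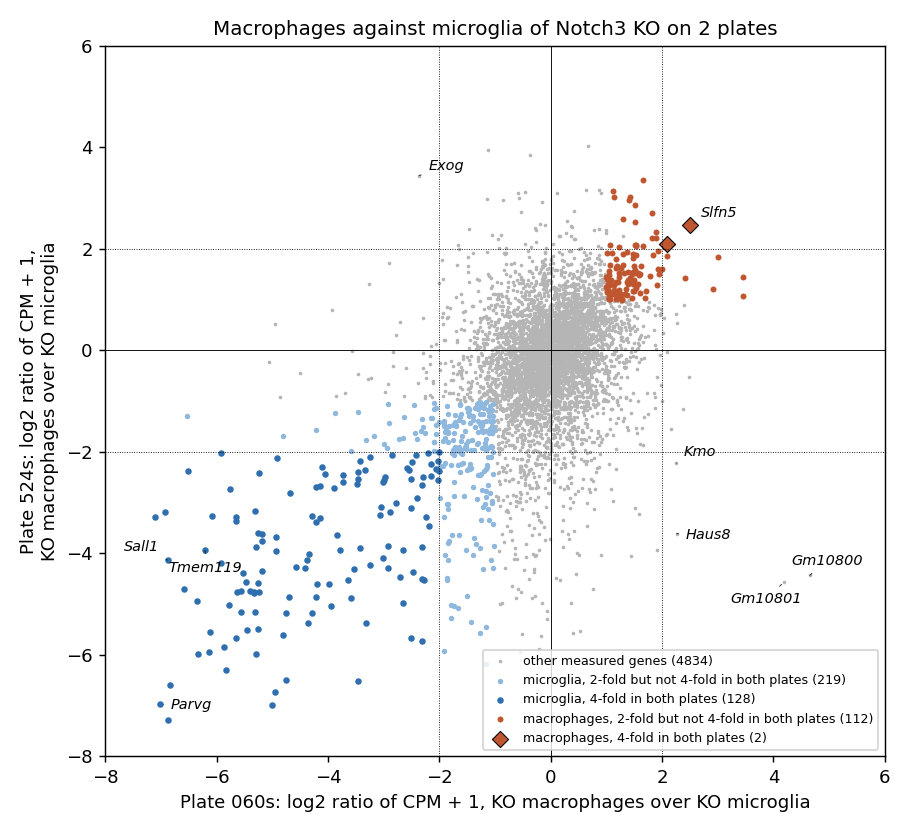
Log2 ratio of CPM + 1 in KO macrophages over KO microglia for 5295 measured genes, plate 060s on the horizontal and plate 524s on the vertical axis; dotted lines mark 4-fold. Blue points reach 4-fold (128) or 2-fold higher in microglia on both plates, red points 2-fold and diamonds 4-fold (2) higher in macrophages, and the named points at the lower right and upper left go in opposite directions.

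The genes most strongly higher in microglia were close to absent from macrophages. The 15 with the largest smaller ratio of the plates, leaving out predicted genes, ran from Parvg at -7.02 and -6.97 to Sowahc at -5.01 and -7.00 on the log2 scale. Parvg, which encodes gamma-parvin, an adaptor between integrins and actin, stood at 385 CPM (372 to 399) in microglia and 1.98 CPM (1.29 to 2.90) in macrophages of plate 060s, and at 424 CPM (412 to 436) and 2.39 CPM (1.19 to 4.27) on plate 524s. Its counts came from 35 of 47 and 27 of 31 microglia, and from 20 of 98 and 8 of 21 macrophages. With every cell thinned to 52403 counts, which leaves out 20 shallower cells, shares of cells with a Parvg count were 75.6% and 83.3% in microglia and 10.8% and 10.5% in macrophages. Spint1, an inhibitor of membrane serine proteases, stood at 232 against 0.991 CPM on plate 060s and 258 against 0.651 CPM on plate 524s. Il1a, the cytokine interleukin-1 alpha, stood at 105 against 0.305 CPM and 103 against 0.651 CPM, with counts in 23 of 47 and 20 of 31 microglia and in 3 of 98 and 2 of 21 macrophages. The pools of the cell types did not come near each other for any of these 3 genes.

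The remaining genes of the 15 have varied roles. Arhgap27, a GTPase-activating protein, stood at 258 and 268 CPM in microglia of plates 060s and 524s and at 3.43 and 3.69 CPM in macrophages. Arhgef40, a guanine nucleotide exchange factor, stood at 155 and 197 against 1.75 and 1.52 CPM. Tjp1, the tight junction scaffold ZO-1, stood at 100.3 and 46.2 CPM in microglia, at 0.457 CPM in macrophages of plate 060s and at 0 counts in those of plate 524s. Sh2d3c, an adaptor of receptor signalling, stood at 68.7 and 82.5 against 0.381 and 0.651 CPM. Lower in macrophages were also the organic anion transporter gene Slco4a1 (96.2 and 87.7 against 0.381 and 0.434 CPM) and the potassium channel gene Kcnd1 (98.3 and 158 against 1.52 and 1.52 CPM). Plxdc1, Tmem100, Tmc7, Upk1b, Olfml2b and Sowahc made up the 15, with microglial levels of 34.8 CPM (Tmc7, plate 524s) to 210.0 CPM (Sowahc, plate 524s) and macrophage levels of 2.29 CPM or less. Tmc7 also had 0 counts in macrophages of plate 524s.

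**Figure D4:**
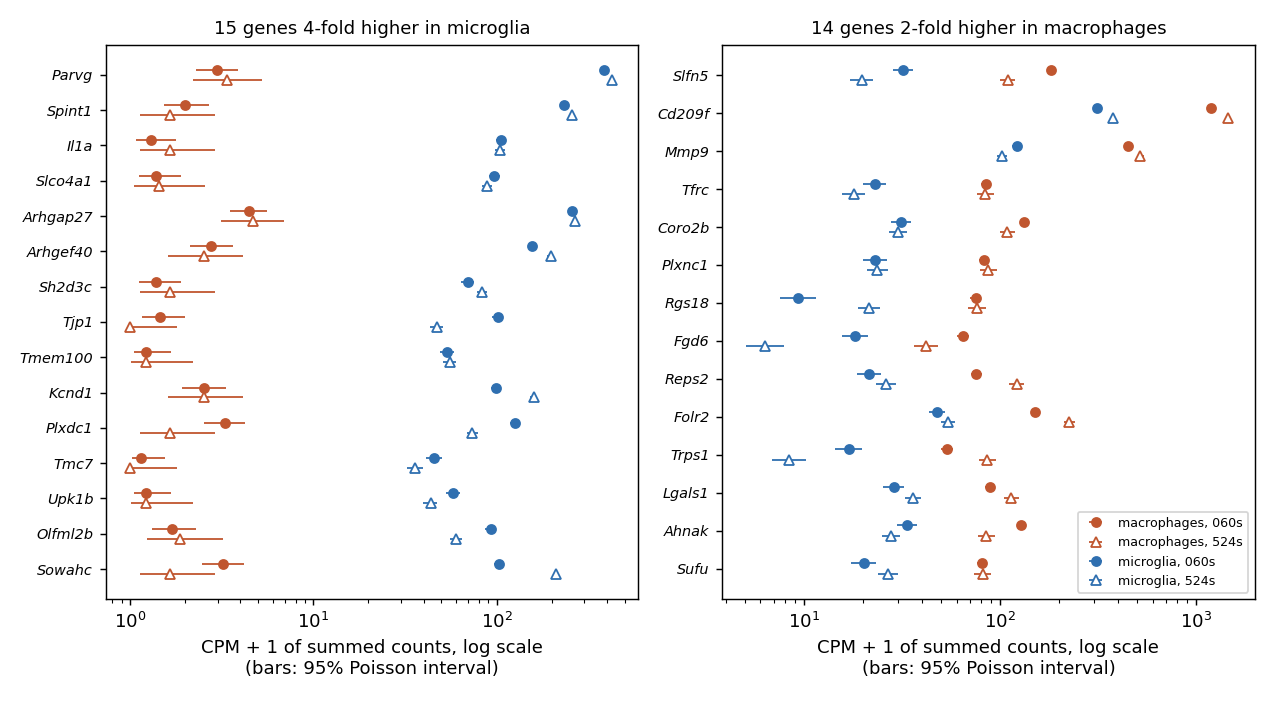
CPM + 1 of summed counts on a log axis for the 15 genes with the largest smaller ratio higher in microglia (left) and 14 of those higher in macrophages at the 2-fold limit (right); red is macrophages, blue microglia, circles plate 060s, triangles plate 524s, bars 95% Poisson intervals. Macrophages lie below 5 CPM for all 15 microglial genes, and microglia lie between 5.36 and 374 CPM for the 14 macrophage genes, which were chosen at the lower limit of 2-fold.

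Over all 128 microglial genes microglia of plate 060s had a median level of 105.9 CPM and macrophages of 6.13 CPM, and 106.9 and 8.79 CPM on plate 524s. In macrophages 53 of them stood at 10 CPM or less on both plates, and 17 had a count in over 50% of macrophages on both.

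Of the 2 genes called higher in macrophages, Slfn5, an interferon-inducible gene of the Schlafen family, stood at 181 CPM (174 to 188) in macrophages and 30.9 CPM (27.3 to 34.8) in microglia of plate 060s, and at 109 CPM (99.4 to 119) and 18.7 CPM (16.2 to 21.4) on plate 524s. On plate 524s 1 cell held 60.1% of the macrophage counts and 1 cell 50.7% of the microglial counts. Without the cell with the most counts in each pool, its log2 ratios were 2.82 and 2.16. The other call of the 2 was lost without such cells. The exons of Slfn5 overlap those of Slfn5os, and since the protocol keeps no strand, reads of the 2 genes cannot be told apart. Slfn5 is no exception: P2ry12, Adora3, Irf7 and Pltp are among the other genes reported here that overlap a neighbouring gene.

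Since 2 genes give little of an identity, 14 of the 15 macrophage genes with the largest smaller ratio at 2-fold are described as well, a choice made after their values were seen. They include Slfn5. Cd209f, a C-type lectin of the DC-SIGN family, stood at 1184 CPM (1166 to 1203) in macrophages and 309.8 CPM (298 to 322) in microglia of plate 060s, and at 1455 and 374 CPM on plate 524s, where 1 macrophage held 54.1% of the counts. With the median of the cells' own CPM in place of summed counts its log2 ratio on plate 524s was -1.41. Mmp9, a matrix metalloproteinase, stood at 449.8 against 121 CPM and 516 against 101 CPM, and by the same median at a log2 ratio of -1.10 on plate 524s. Tfrc, the transferrin receptor, stood at 84.0 against 22.0 CPM and 82.9 against 17.0 CPM. The other members were Folr2 (above), the plexin Plxnc1, the G protein regulator Rgs18, the actin-binding coronin Coro2b, the exchange factor Fgd6, Reps2, the transcription factor Trps1, the galectin Lgals1, the scaffold protein Ahnak and Sufu, an inhibitor of hedgehog signalling. Lgals1 stood at 87.3 and 113 CPM in macrophages and 27.6 and 34.9 CPM in microglia. Its counts were in 72 of 98 and 16 of 21 macrophages, and in 57.4% and 67.7% of microglia. Rgs18 stood at 73.9 and 75.5 against 8.36 and 20.5 CPM.

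At the 2-fold limit levels in the lower cell type were set side by side. The 114 macrophage genes and the 347 microglial genes were chosen by this contrast, so the values are a description. For the 114 the median levels were 134.9 CPM (macrophages) and 50.4 CPM (microglia) on plate 060s, and 130.6 and 41.8 CPM on plate 524s. A count was found in over 50% of microglia on both plates for 56 of them, and 0 stood at 10 CPM or less in microglia on both plates. For the 347 microglial genes the medians were 94.9 CPM (microglia) and 20.6 CPM (macrophages) on plate 060s, and 84.0 and 14.8 CPM on plate 524s. A count was found in over 50% of macrophages on both plates for 46 of the 347, and 65 stood at 10 CPM or less in macrophages on both. Macrophages were the shallower cells on both plates, and the part of depth in these detection counts was not tested.

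Promoter windows are shown for 2 genes of each direction, to let the letters be read beside the levels. They run from 250 bases before to 50 bases after a RefSeq gene start on GRCm38.p6, are printed 5′ to 3′ on the gene's strand, and were matched by gene symbol, while the build used by the authors is not known. Capitals mark matches to 2 words searched on both strands: GAGGAAGT, a core bound by the myeloid factor PU.1, and AAANNGAAA, a core of the interferon-stimulated response element. Parvg and Adora3, both higher in microglia, carry the first, and Slfn5 and Ifit3, both higher in macrophages at 2-fold or more, carry the second. Every gene shown carries a match, so they are not typical of their direction, where most windows held none.
Parvg, chr15:84324470-84324769, plus strand: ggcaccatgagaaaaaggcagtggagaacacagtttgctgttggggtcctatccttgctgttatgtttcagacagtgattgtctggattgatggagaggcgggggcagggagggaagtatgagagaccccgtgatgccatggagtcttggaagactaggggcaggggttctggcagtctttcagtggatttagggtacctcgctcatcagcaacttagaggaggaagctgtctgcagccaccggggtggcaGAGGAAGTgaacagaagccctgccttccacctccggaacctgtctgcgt
Adora3, chr3:105904171-105904470, plus strand: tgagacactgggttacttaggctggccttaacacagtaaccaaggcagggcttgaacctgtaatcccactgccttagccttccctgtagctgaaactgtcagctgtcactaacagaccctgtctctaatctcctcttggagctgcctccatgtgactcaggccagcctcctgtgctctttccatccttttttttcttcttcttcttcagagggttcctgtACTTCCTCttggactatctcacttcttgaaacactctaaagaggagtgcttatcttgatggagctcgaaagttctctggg
Slfn5, chr11:82951852-82952151, plus strand: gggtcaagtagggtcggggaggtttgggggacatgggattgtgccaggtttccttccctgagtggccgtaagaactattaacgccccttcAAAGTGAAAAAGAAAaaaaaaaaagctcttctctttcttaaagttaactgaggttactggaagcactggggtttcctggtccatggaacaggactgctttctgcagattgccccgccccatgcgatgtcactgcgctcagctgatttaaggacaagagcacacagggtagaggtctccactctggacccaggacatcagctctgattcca
Ifit3, chr19:34583279-34583578, plus strand: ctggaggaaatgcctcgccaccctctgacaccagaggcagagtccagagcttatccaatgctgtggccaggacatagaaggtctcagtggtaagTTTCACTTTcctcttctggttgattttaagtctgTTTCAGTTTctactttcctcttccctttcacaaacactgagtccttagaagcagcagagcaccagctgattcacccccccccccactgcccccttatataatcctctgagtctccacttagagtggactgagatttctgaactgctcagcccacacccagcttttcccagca
In Parvg the match begins 1 base after the start, in Adora3, on the other strand, 30 bases before it. Slfn5 holds 2 overlapping matches from 160 and 154 bases before the start, and Ifit3 holds 2 on the other strand from 156 and 122 bases before it. A second window of Parvg held no match. GAGGAAGT was in 7.63% of 118 windows of 86 microglial genes at 4-fold, in 2.86% of 105 windows of 82 macrophage genes at 2-fold, in 3.73% of windows of measured genes and in 3.20% of all 32851 windows. AAANNGAAA was in 20.0% of the macrophage windows, 10.2% of the microglial windows, 8.10% of windows of measured genes and 10.6% of all windows. MAF (TGCTGAC) and MEF2 (CTAAAAATA) words were in 5.71% and 0% of macrophage windows and 5.08% and 0.847% of microglial windows. These are counts of letters and show no binding.

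Counts of list members at 2-fold, here and below, stand beside 6.55% of all measured genes higher in microglia and 2.15% in macrophages. Some counts below are of members higher in a type on both plates without a fold limit. No share over all measured genes is given for those, so they describe the list only. Several lists share genes with the microglia markers, such as Selplg, Slc2a5, Cx3cr1, Sall1 and Sparc, whose values only check the labels. In the list of purinergic receptors and ectonucleotidases more members were higher in microglia, among them the markers P2ry12, P2ry13 and Gpr34. Of 16 purinergic receptors and ectonucleotidases 10 were measured, 5 were higher in microglia at 2-fold on both plates, 3 of them at 4-fold, and 0 were higher in macrophages. Those at 4-fold were P2ry12, Gpr34, a lysophosphatidylserine receptor at 1457 and 1408 CPM in microglia against 255 and 241 CPM, and Adora3, an adenosine receptor at 74.3 and 45.7 against 1.07 and 1.30 CPM. P2ry13 was 3.34-fold and 4.15-fold higher in microglia. P2rx1 also passed 2-fold, but its macrophage counts came almost wholly from 1 cell on each plate. Purinergic receptors were not uniformly microglial: the ATP-gated channels P2rx4 and P2rx7 had log2 ratios of 0.79 and 0.85 and of 0.76 and 1.00, towards macrophages. The list's median log2 ratio was -1.17 and -1.06.

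Chemokine and cytokine genes divided between the types. Of 38 members 22 were measured, 3 were higher in macrophages and 2 in microglia at 2-fold, beside 2.15% and 6.55% of all measured genes. Ccr1, a chemokine receptor, was higher in macrophages, with 714 against 254 CPM and 851 against 289.9 CPM. The ligands Ccl2 and Ccl24 were higher in macrophages as well, Ccl24 at 151 against 62.6 CPM and 221 against 70.8 CPM. Il1a was a microglial member.

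Receptors that maintain microglia showed 2 patterns. In the Csf1 and Cx3c list 9 of 11 members were measured and 2 passed 2-fold, both higher in microglia: Cx3cr1, the fractalkine receptor, at 6360.4 against 1938 CPM and 7603 against 2840.0 CPM, and Csf3r, the granulocyte growth factor receptor, at 403 against 112 CPM and 419 against 176 CPM. Csf1r and Tyrobp, the adaptor of Trem2, were close to equal, Tyrobp with log2 ratios of 0.21 and 0.17. In the TGF-beta list 11 of 20 were measured, 4 were higher in microglia and 0 in macrophages at 2-fold. Tgfbr1, the type I receptor, was 8.37-fold and 9.49-fold higher in microglia, whereas Tgfbr2, its partner, had log2 ratios of 0.32 and 0.24. Eng, the co-receptor endoglin, stood at 279 and 327 against 35.9 and 15.8 CPM, and Itgav and Itgb5, integrin subunits that can release latent TGF-beta, were 2.24-fold and 7.44-fold, and 5.01-fold and 3.01-fold higher. The ligand Tgfb1 was not measured.

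Among 37 lineage transcription factors 22 were measured, 3 were higher in microglia and 0 in macrophages at 2-fold. Sall3, a relative of Sall1, stood at 42.0 and 56.7 CPM in microglia and 0.0762 and 1.09 CPM in macrophages. Spi1, which encodes PU.1, had log2 ratios of -0.30 and 0.01, and Irf8 of -0.92 and -1.56. The list's median was -0.30 and -0.56.

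Adhesion genes formed the list with the most members higher in microglia apart from the marker list, with which it shares Selplg. Of 28 members 18 were measured, 9 were higher in microglia at 2-fold, 5 of them at 4-fold, and 0 in macrophages. The tetraspanin Cd81 stood at 1762 against 93.7 CPM and 2068 against 318 CPM, and Cd9 at 209.7 against 5.87 CPM and 213 against 12.8 CPM. Selplg, the selectin ligand PSGL-1, stood at 3899.7 against 106 CPM and 4847 against 357 CPM. Jam2 and Pecam1, junction proteins also found in endothelium, stood at 73.1 and 85.2 CPM and at 87.2 and 53.6 CPM in microglia, against 3.73 CPM or less in macrophages. F11r, a further junctional adhesion molecule, stood at 703 against 4.80 CPM and 963 against 105 CPM. The endothelial markers Cldn5, Flt1 and Cdh5 stood at 0.686 CPM or less in every KO pool, and the endothelial list of 12 summed to 212 and 153 CPM in microglia and 222 and 161 CPM in macrophages. Itgam (CD11b) was 3.73-fold and 3.04-fold higher in microglia, with Itga6, Itgav and Itgb5 the other members at 2-fold.

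Of 21 ion channels, transporters and sensors 14 were measured, 4 were higher in microglia and 1 in macrophages at 2-fold. Hvcn1, the voltage-gated proton channel, stood at 146 against 32.1 CPM and 108 against 22.1 CPM. Slc2a5, a fructose transporter, stood at 681 against 12.6 CPM and 738 against 70.5 CPM. Slc1a3, a glutamate transporter known best from astrocytes, stood at 132 against 8.99 CPM and 181 against 29.3 CPM, while the astrocyte water channel Aqp4 stood at 1.15 and 2.50 CPM in microglia. Trpv4, a mechanosensitive cation channel, was the macrophage member, at 332 against 120.3 CPM and 489 against 172 CPM.

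Uptake receptors and Ms4a genes stood on the macrophage side. Of 27 scavenger and lectin receptors, a list that shares genes with the macrophage markers, 19 were measured, 15 were higher in macrophages on both plates, 3 of them (Cd209f, Colec12 and Mrc1) at 2-fold, and 0 were higher in microglia at 2-fold. Stab1, the scavenger receptor stabilin-1, stood at 9553 against 3742 CPM and 9497 against 4936 CPM, just short of 2-fold on plate 524s. Of 10 Ms4a genes, a family of 4-pass membrane proteins, 5 were measured, and Ms4a4a, Ms4a6d and Ms4a7 were higher in macrophages at 2-fold. Ms4a4a stood at 576 against 193 CPM and 719 against 248 CPM. Coagulation and platelet factors gave F13a1 and Pf4, the chemokine platelet factor 4, for macrophages and F11r for microglia among 8 measured of 18. Pf4 stood at 793 against 359 CPM and 819.7 against 366 CPM. Of 21 genes for the uptake of apoptotic cells 12 were measured, 3 (Itgav, Itgb5 and the engulfment factor Elmo1) were higher in microglia and 0 in macrophages at 2-fold.

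Complement and Fc receptor genes were shared more than divided. C1qa, C1qb and C1qc, the chains of the recognition molecule C1q, had log2 ratios of -0.15 to -0.03 on plate 060s and -0.18 to -0.06 on plate 524s. Of 12 measured complement genes of 19, C2 and C4b were higher in macrophages and Itgam in microglia at 2-fold. C4b stood at 375 against 131 CPM and 1687 against 293 CPM. Fcgrt, the neonatal Fc receptor that recycles antibody and albumin, stood at 4058 against 1740.2 CPM and 4411 against 2007 CPM and was the only member at 2-fold among 6 measured Fc receptor genes of 8.

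Lysosomal genes were all measured, 32 of 32, and most were close to equal, with medians of 0.17 and 0.07. The cathepsin Ctss was higher in microglia and Galc, a galactosylceramidase, in macrophages at 2-fold. Ctss stood at 3759 against 1464 CPM and 5529 against 2503 CPM. In antigen presentation 0 of 14 measured MHC class I genes of 18 passed 2-fold, and of 6 measured class II genes of 15 Ctss and H2-DMa were higher in microglia, 2 of 6 beside 6.55% of all measured genes. The class II median log2 ratio was -0.85 and -0.10. H2-D1, a class I heavy chain, had log2 ratios of 0.58 and 0.88. Cd74, the invariant chain of class II, went in opposite directions, with log2 ratios of -0.94 and 1.07, and 1 cell held 58.8% of its counts in microglia of plate 060s and 1 cell 69.0% in macrophages of plate 524s.

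Iron genes leaned towards macrophages, and lipid genes divided between the types. Of 20 iron and heme genes 15 were measured, 11 were higher in macrophages on both plates and 1 at 2-fold, Tfrc. The median log2 ratio was 0.81 and 0.82, beside -0.05 and -0.13 for all measured genes. Ftl1, the ferritin light chain, had log2 ratios of 0.87 and 1.00. Hmox1, heme oxygenase 1, had 0.36 and 0.91. The 2 ratios of Hmox1 lay below all 6 control ratios, the lowest of which was 1.33, by less than the 1 log2 unit asked for below. Of 31 lipid genes 23 were measured, 13 were higher in macrophages and 8 in microglia on both plates, and 2 and 1 of them passed 2-fold. Pltp, the phospholipid transfer protein, stood at 537 against 209.8 CPM and 722 against 310.3 CPM, and Ptgs1, cyclooxygenase 1, was higher in microglia at 2-fold, at 962 against 356 CPM and 795 against 203 CPM. Apoe, the carrier of lipids between brain cells, stood at 53905 against 27399 CPM and 89503 against 31541 CPM.

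Growth factors and matrix enzymes, which bear on the vessel wall, held 12 measured members of 34, with 3 higher in each type at 2-fold. Mmp9, the protease Adam9 and the semaphorin and VEGF receptor Nrp1 were the macrophage members, Adam9 at 749 against 303 CPM and 547 against 169 CPM. Mmp2, a second gelatinase, was higher in microglia, at 51.7 and 32.2 CPM against 0.305 and 0.217 CPM, the opposite of Mmp9. Pdgfb, the growth factor that recruits mural cells, stood at 29.7 against 7.47 CPM and 46.9 against 1.09 CPM, and Sparc was the other microglial member.

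Interferon-response genes stood higher in macrophages on plate 060s and less evenly on plate 524s. Of 25 members 16 were measured, 13 were higher in macrophages on both plates, 5 at 2-fold (Bst2, Ifit3, Ifitm3, Irf7 and Slfn5) and 0 in microglia. The median log2 ratio was 1.44 on plate 060s and 0.53 on plate 524s, and 0.58 to 1.86 in the control pools. Ifit3, an inhibitor of viral translation and signalling, stood at 213 CPM (205 to 221) against 39.3 CPM (35.2 to 43.7) on plate 060s and 36.3 against 12.8 CPM on plate 524s, with control ratios from -3.86 to 3.89. Irf7, a master regulator of the response, stood at 228 against 29.3 CPM and 183 against 79.0 CPM. Bst2 was more alike between plates, with log2 ratios of 1.28 and 1.02 and control ratios from 0.44 to 1.52. Oasl2 had log2 ratios of 1.88 and -0.92, opposite on the plates.

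The remaining lists had these counts, beside 6.55% of all measured genes 2-fold higher in microglia and 2.15% in macrophages. Of 22 disease-associated microglia genes 12 were measured and 1, Cd9, passed 2-fold, in microglia. Of 25 immediate early and dissociation stress genes 10 were measured and 1, Rhob, passed 2-fold, at 91.3 against 27.3 CPM and 105 against 37.3 CPM in microglia and macrophages. In the Notch pathway 18 of 32 genes were measured, 3 were higher in microglia and 0 in macrophages at 2-fold, with medians of -0.16 and -0.23. The receptors Notch1 and Notch2 had log2 ratios of 0.47 and -0.22 and of 0.31 and -0.22. Mfng, a glycosyltransferase that modifies Notch receptors, stood at 158 against 41.0 CPM and 167 against 60.6 CPM, and Numb, an inhibitor of Notch signalling, at 324 against 51.4 CPM and 196 against 78.1 CPM. The coactivator Maml3 was the third microglial member, and Rbpj, the DNA-binding partner of Notch, had log2 ratios of 0.88 and 1.04.

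**Figure D5:**
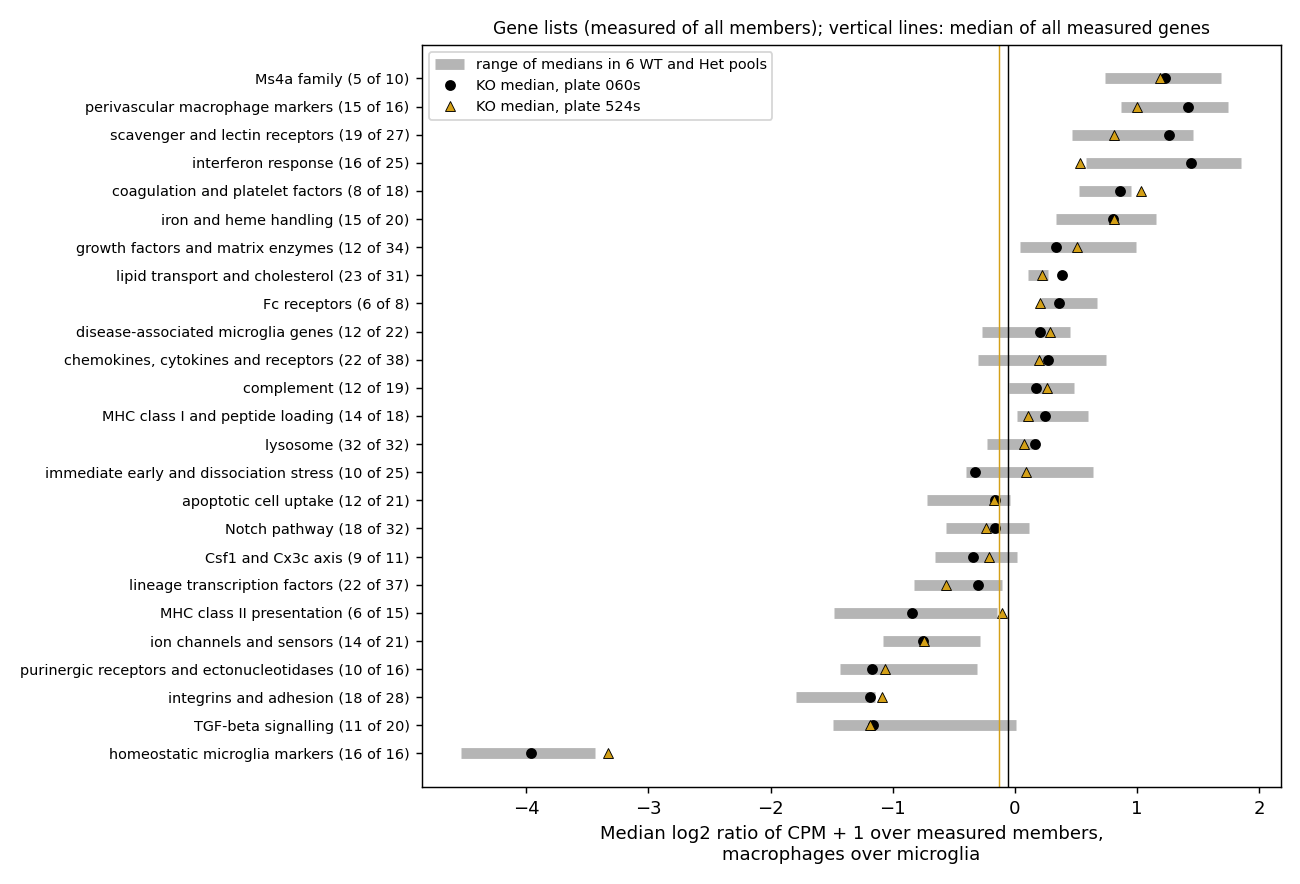
Median log2 ratio of CPM + 1, macrophages over microglia, of the measured members of each list with at least 5 of them; circles are KO plate 060s, triangles KO plate 524s and grey bars the range of the same medians in 6 control pools. Vertical lines mark the median of all measured genes, -0.05 and -0.13. Ms4a genes and scavenger receptors lie to the right, TGF-beta, adhesion and purinergic genes to the left, at KO values close to or inside the control ranges.

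Many of the most abundant transcripts were at near-equal levels in both cell types. Of 152 genes at 500 CPM or more in all 4 pools, 96 were under 1.5-fold apart on both plates. The 10 with the highest mean level were the C1q chains, Csf1r, Fcrls, the lysosomal growth factor precursor Grn, the transferrin gene Trf, the membrane protein genes Itm2b and Serinc3 and the actin gene Actb. Csf1r stood at 15890.1 and 15148 CPM in macrophages and 20128 and 18366 CPM in microglia, and Grn at 9877 and 9731 against 8545 and 9238 CPM.

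The differences found without Notch3 were set beside the same ratio in the 6 control pools, which came from mice of other genotypes and were not used to make the calls. Of the 128 genes higher in KO microglia, 108 were higher in microglia in all 6, and 69 were at least 4-fold higher in all 6. Over all measured genes 459 (8.67%) were higher in microglia in all 6 control pools and 75 (1.42%) at least 4-fold. The medians of the 128 genes were -4.21 and -3.91 in KO and ran from -5.14 to -3.28 in the control pools. Of the 114 genes 2-fold higher in KO macrophages, 47 were higher in macrophages in all 6 control pools, beside 440 (8.31%) of all measured genes, and 4 were 2-fold higher in all 6. Their medians were 1.38 and 1.44 in KO, the contrast that chose them, and 0.62 to 1.27 in the control pools. Slfn5 ran from -3.05 to 2.91 in the control pools and was higher in macrophages in 5 of 6.

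Few genes had KO ratios apart from all control ratios. A gene counted when both KO ratios lay above, or both below, all 6 control ratios by at least 1 log2 unit. Of 5274 genes, 2 (0.0379%) lay above and 2 (0.0379%) below. Gm44860, a predicted gene, lay above, at -1.89 and -1.73 against -4.94 to -2.98, and 1 cell held 80.8% and 96.2% of its counts in KO macrophages of the plates. Klhl5, a kelch-repeat gene, and Wdr24, a part of the GATOR2 complex that relays amino acid supply to mTORC1, lay below. Klhl5 had -1.74 and -1.97 in KO and -0.58 to 2.02 in the control pools, and Wdr24 -1.63 and -2.40 against -0.56 to 2.51. By Xist and Ddx3y the KO pools and the control pools each held both sexes, and Het cells shared plate 524s with KO cells. Genotype and animal cannot be told apart in these values, and the part of plate was not tested.

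Markers of other brain cells were examined in all 4 pools. No member of the mural cell (13), fibroblast (8) or neuron (11) lists was measured, and the mural list summed to 9.52 and 13.7 CPM in macrophages and 4.47 and 103 CPM in microglia. The astrocyte list summed to 175 and 184 against 239 and 352 CPM. Of the oligodendrocyte list, Trf made up most of the sum in every pool, and the myelin gene Mbp stood at 259.7 and 183 CPM in macrophages and 217 and 244 CPM in microglia, with a count in 86.7% and 100% of macrophages and 85.1% and 100% of microglia of plates 060s and 524s. Its part in the results was not tested. Of the monocyte and neutrophil list 2 of 13 were measured, Csf3r and Ngp, of the lymphocyte list Cd4 and Ighm, and of the dendritic cell list Fscn1. Cd4 was higher in macrophages at 325 against 156 CPM and 304 against 149.7 CPM, and Fscn1, an actin-bundling protein, higher in microglia at 247 against 54.9 CPM and 289 against 114 CPM.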

How the data were processed

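Single brain cells of 3 genotypes on 6 plates were measured by SMART-seq2, 1 cell per deposited sample, and the groups, plates and cell types were taken from the labels. The values are read counts per gene as deposited by the authors, in a table of 53546 genes and 92 ERCC spike-ins. Reads were aligned with STAR, per the submitters' processing notes, while the genome build, annotation, counting tool and any removal of doublets are not given in the sources used here. No doublet caller was run. Without molecular identifiers PCR copies are counted as reads, so intervals (exact Poisson for CPM, 95%) and the limit that a count of 0 allows (3 counts) cover counting error only.

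Counts were summed per genotype, plate and cell type and divided by the total without ERCC (1.22% of all counts) and Rn18s. Tools were numpy 2.4.6, scipy 1.17.1, pandas 2.3.3 and matplotlib 3.10.9 under Python 3.11.15. Ratios were formed on CPM + 1. No animal is labelled, so each cell type in a genotype was treated as 1 sample and no test was run: a gene was called by size, at 4-fold in the same direction on both plates with at least 20 CPM and a count in 25% of cells in the higher type. The rule was tested on simulated counts with known changes of 8-fold and no differences between plates. Changes at the 4-fold and 2-fold limits were not simulated. Genes were named as the 15 called genes of each direction with the largest smaller ratio (predicted, ribosomal, mitochondrial and sex-linked genes left out), the called members of 35 lists and the 2 most abundant others, genes opposite between plates, genes beyond all control ratios, and the 10 most abundant genes at equal levels. A 2-fold limit was used as well, and naming by it was chosen after the values were seen. The cells and lists were chosen with earlier results of these data known. Alternatives were other levels per cell, edgeR 4.0.16 TMM and DESeq2 1.42.0 size factors (R 4.3.3, used for scaling only), Rn18s kept, other pseudocounts, floors and detection limits, thinned counts, filtered cells, and leaving out cells or a plate. Some genes counted in these lists are not reported here by name.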

Additional observations from a re-analysis of the deposited data

Results flagged for a closer look

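The genes below had log2 ratios of at least 4-fold in opposite directions on the KO plates, and the difference between plates was not tested. Exog, a mitochondrial nuclease, had a log2 ratio of macrophages over microglia of -2.36 on plate 060s and 3.44 on plate 524s, with 8.99 against 50.4 CPM and 93.6 against 7.68 CPM. Haus8, a part of the augmin complex of the spindle, had 2.26 and -3.61, and all of its macrophage counts on plate 524s came from 1 of 21 cells. Kmo, the kynurenine 3-monooxygenase of tryptophan breakdown, had 2.25 and -2.22, and its macrophage counts on plate 524s also came from 1 of 21 cells. The predicted gene Gm10800 had 4.65 and -4.43, with 96.8% of the macrophage counts of plate 060s and 96.9% of the microglial counts of plate 524s in 1 cell each. Gm10801 had 4.20 and -4.56, with 96.1% and 96.7% in 1 cell.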

How the results depend on the processing

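The counts of genes 4-fold higher in macrophages (2) and microglia (128), of genes 2-fold higher in macrophages (114) and microglia (347) and of genes opposite on the plates (5) were recomputed, one choice changed at a time. The macrophage count stood at 0 with the mean of the cells' own CPM, at 1 with Rn18s kept, a pseudocount of 5, a floor of 50 CPM, a count in 50% of cells or thinned cells, at 12 with a count in 10% of cells, at 72 with no floor and no detection limit and at 0 at 8-fold. The microglial count stood at 76 with a count in 50% of cells, at 338 with no floor and no detection limit and at 73 at 8-fold, and with both scaling factors it was 122 (edgeR) and 119 (DESeq2), all among the 128. The median of the cells' own CPM gave 23 and 471 genes at 4-fold (0 shared with the 2 and 59 with the 128), 76 and 654 at 2-fold (35 shared with the 114 and 139 with the 347) and 24 opposite genes. Of the 114, 68 were also called with the mean of the cells' own CPM and 68 with thinned cells. Without the top cell of each pool for a gene, 3 macrophage genes (1 of the 2) and 169 microglial genes (120 of the 128) were called at 4-fold, and 83 of the 114 at 2-fold. By that median Cd209f and Mmp9 reversed on plate 524s, at -1.41 and -1.10; the cause was not tested. At 2-fold the macrophage count was 184 and 61 with a count in 10% and 50% of cells and 459 with no limits, and the microglial count 231 with a floor of 50 CPM, 191 with a count in 50% of cells and 1133 with no limits. Opposite genes numbered 2 with a pseudocount of 5, a floor of 50 CPM, thinned cells or an 8-fold limit, 13 and 1 with a count in 10% and 50% of cells, 143 with no limits and 73 at 2-fold. Without plate 060s the counts were 140 and 660 at 4-fold and 705 and 1482 at 2-fold, and without plate 524s 34 and 233, and 399 and 772, since 1 plate in place of 2 has to pass. The genes above (2) and below (2) all control ratios numbered 0 and 1 with the mean of the cells' own CPM, 1 and 1 with a pseudocount of 5, 0 and 0 with a floor of 50 CPM, and 12 and 23 at a gap of 0.5; with a floor of 5 CPM 5 lay below. Limits at 2-fold for both cell types, the cell left out on plate 524s, and the alternatives for the genes opposite on the plates and beyond the control ratios were chosen after seeing the data. No paired analysis was possible because the cells carry no replicate numbers and the results come from no test; every ratio was formed inside a plate. Macrophages were the shallower cells, and a gene at 20 CPM gives a few counts in a cell of median depth. With every cell thinned to 52403 counts, median genes per cell were 2812 in macrophages and 3542 in microglia of plate 060s. On plate 524s they were 2652 and 3776. The part of depth in the results was not tested.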
